A study of Arabidopsis thaliana with 36 samples.

Results

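The 10 genes described here form the core of the Arabidopsis circadian clock, and they were taken by locus from the count files: LHY (AT1G01060), CCA1 (AT2G46830), PRR9 (AT2G46790), PRR7 (AT5G02810), PRR5 (AT5G24470), TOC1 (AT5G61380), GI (AT1G22770), LUX (AT3G46640), ELF4 (AT2G40080) and ELF3 (AT2G25930). They are 10 of 32678 genes in the files, and all 10 were among the 20939 genes with enough reads to be tested. The RNA came from sections of Arabidopsis thaliana (Col-0) roots of 2 genotypes, CASP1::shy2-2/slr-1 and slr-1. All seedlings were 7 days old at harvest, had grown in continuous light for 6 days before transfer, and had lost the shoot and about 3 mm of root tip. Each genotype was sampled untreated (0 h) and after 2, 4, 8, 16 and 24 h on 10 µM NAA, a synthetic auxin, and each of these 12 groups holds 3 libraries.

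Both genotypes carry slr-1, a stabilised form of the auxin repressor IAA14 that stops lateral root formation, so no group is wild type. The transgene of CASP1::shy2-2/slr-1 adds a stabilised IAA3 (SHY2) made in the differentiated endodermis, where the CASP1 promoter is active, and this genotype is set against slr-1 alone. The labels name neither the number of transgenic lines nor the clock hour of harvest. Each genotype has untreated controls at 0 h and no mock-treated sample at the later times, so in every comparison below the time since transfer and the NAA itself cannot be told apart. The files do not tell the transgene or the mutant alleles apart from the endogenous genes, so IAA3 and IAA14 counts do not check the genotype labels. No time gave a called excess of IAA3 in CASP1::shy2-2/slr-1, the line with the added transgene. The log2 difference without NAA was 0.16 (adjusted p 0.351) for IAA3 and 0.25 (0.553) for IAA14. Under NAA the IAA3 difference was -1.85 to -0.64 from 4 to 24 h, each called lower in CASP1::shy2-2/slr-1, with 22.9 ± 1.06 CPM at 16 h, against 82.5 ± 4.31 CPM in slr-1, and that of IAA14 was -2.24 to -1.05 from 2 to 16 h, each called lower too.

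The plant clock is a loop of repressors that are made in turn through the day. LHY and CCA1, MYB-like factors with a peak near dawn, bind the evening element and repress evening genes. The pseudo-response regulators PRR9, PRR7, PRR5 and TOC1 follow one another from morning to evening and repress LHY and CCA1. At dusk ELF3, ELF4 and LUX form the evening complex, which represses PRR9 and PRR7 among others, and GIGANTEA (GI) works with the blue-light receptor ZEITLUPE in the breakdown of TOC1. In roots the clock has been tied to auxin sensitivity and to the emergence of lateral roots. In continuous light the clock runs free, and each level is 1 point on a rhythm whose phase is not given here. Transfers were staggered so that seedlings reached the same age at harvest, so hours on NAA need not be hours apart on that rhythm.

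Reads counted in genes ran from 28.1 to 49 M per library with a median of 39.3 M, which gave the least abundant of the 10 genes, PRR9, at least 69 reads in every library. Levels are given as CPM, reads per 1 M reads of the library after TMM scaling, and they are compared between groups and not between genes. A gene was called where the Benjamini-Hochberg adjusted p of edgeR's quasi-likelihood F-test, fitted on all 20939 genes, was under 0.05, and every adjusted p below is from that test. The labels do not tie the 3 libraries of a group to separate plates or days, so p-values measure the spread between these libraries. As an alternative chosen after the values were seen and by no fixed rule, 1 library in each of 5 groups was left out, called here the libraries that stood apart: replicate 2 at 2 h and replicate 3 at 8 and at 16 h in CASP1::shy2-2/slr-1, and replicate 3 of the controls and at 16 h in slr-1. Their counts differed from those of their 2 group mates by a chi-square over its degrees of freedom of 31.8 to 101. Other libraries that were kept lay about as far out as the nearest of these, with 35.8 and 37 for replicate 2 of untreated CASP1::shy2-2/slr-1, 33.4 and 40.4 for replicate 3 at 4 h and 30.7 and 38.2 for replicate 3 at 8 h in slr-1. Calls that end without the 5 are named. Library codes end in n for 13 libraries, x for 1 and nothing for 22, with a meaning the labels do not give. All 3 slr-1 libraries at 2 h end in n, and those of CASP1::shy2-2/slr-1 at 2 h end in n, x and n. The untreated and 24 h libraries of both genotypes carry no suffix. Each comparison of 2 h with untreated is thus also a comparison of suffixes, in both genotypes. The auxin-responsive genes GH3.2, GH3.3 and IAA19 rose at all 5 times in both genotypes, 3 of 3 each time. Summed CPM of 12 photosynthesis markers ran from 85.8 to 391 per library, of 9 endodermis markers from 28.2 to 332, and of 6 root tip markers from 0.111 to 11, and in these bulk sections fewer cells of a type and less RNA per cell cannot be told apart. Of the endodermis markers 0, 6, 6, 6 and 9 of 9 were lower from 2 to 24 h in CASP1::shy2-2/slr-1, with none higher. In slr-1 1 was lower and 1 higher at 2 h, and all 9 were lower at 4, 8, 16 and 24 h. Of 6 root tip markers 5 in CASP1::shy2-2/slr-1 and 4 in slr-1 were higher at 16 h, and 1 and 3 at 24 h. Of all genes 15.4%, 11.9%, 7.15%, 13.9% and 21.1% were lower from 2 to 24 h in CASP1::shy2-2/slr-1. In slr-1 22.5%, 21.8%, 17.8%, 22.5% and 26.8% of all genes were lower. The shares higher at 16 and 24 h were 15.8% and 21.6% in CASP1::shy2-2/slr-1, and 22.4% and 23.3% in slr-1. CASP5 had no read at 24 h in either genotype, and the root cap markers SMB, BRN1 and BRN2 had none at 2 h in CASP1::shy2-2/slr-1. The part of these cell types in the clock gene values was not tested.

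LHY, CCA1 and GI rose and TOC1, LUX and ELF4 fell in slr-1 at 4, 8 and 16 h of NAA. At these times none of the 6 but ELF4 at 16 h passed in CASP1::shy2-2/slr-1. Tested directly, the genotypes' responses differed at 4 h for GI and LUX and at 8 h for LHY, GI and LUX. At 16 h LHY and LUX passed that test, and CCA1, TOC1 and ELF4 passed it at none of these times. Of all genes 11.9%, 11.6% and 9.44% passed it at 4, 8 and 16 h. In CASP1::shy2-2/slr-1, 2 of the 10 genes passed the test at 2 h (TOC1 and ELF3, both higher), against 31.1% of all genes tested (15.7% higher, 15.4% lower). PRR9 alone passed at 4 h, lower, against 22.5% of all genes (10.6% higher, 11.9% lower). None passed at 8 h by edgeR or by DESeq2, where 14.9% of all genes did (7.79% higher, 7.15% lower) and 1 of the 10 had an unadjusted p under 0.05. At 16 h 2 were lower (ELF4 and ELF3) against 29.7% of all genes (15.8% higher, 13.9% lower), and at 24 h 2 were lower (PRR7 and ELF3) against 42.6% (21.6% higher, 21.1% lower). The share called was below that of all genes at each time. The median log2 fold change over the 10 was 0.26, -0.04, -0.04, -0.11 and -0.27 from 2 to 24 h, against -0.02, -0.02, -0.00, -0.00 and -0.01 over all genes.

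More clock genes passed in slr-1 at each time, and so did a larger share of all genes. At 2 h 7 of the 10 passed (LHY, CCA1, PRR9, PRR5, GI and ELF3 higher, LUX lower) against 42.8% of all genes (20.3% higher, 22.5% lower). At 4 and at 8 h LHY, CCA1 and GI were higher and TOC1, LUX and ELF4 lower, 6 of 10 each time, against 42.1% of all genes at 4 h (20.3% higher, 21.8% lower) and 35.8% at 8 h (17.9% higher, 17.8% lower). At 16 h 7 passed (LHY, CCA1 and GI higher, TOC1, LUX, ELF4 and ELF3 lower) against 44.9% (22.4% higher, 22.5% lower), and at 24 h 5 passed (LHY and GI higher, TOC1, ELF4 and ELF3 lower) against 50.2% (23.3% higher, 26.8% lower). The median over the 10 was 0.72, -0.17, 0.10, 0.02 and -0.27 from 2 to 24 h, against -0.05, -0.02, 0.01, 0.01 and -0.00 over all genes. With all 5 times tested together, 8 of 10 passed in CASP1::shy2-2/slr-1 (not PRR5 and GI) against 73% of all genes, and 9 of 10 in slr-1 (not PRR7) against 81.4%.

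**Figure D1:**
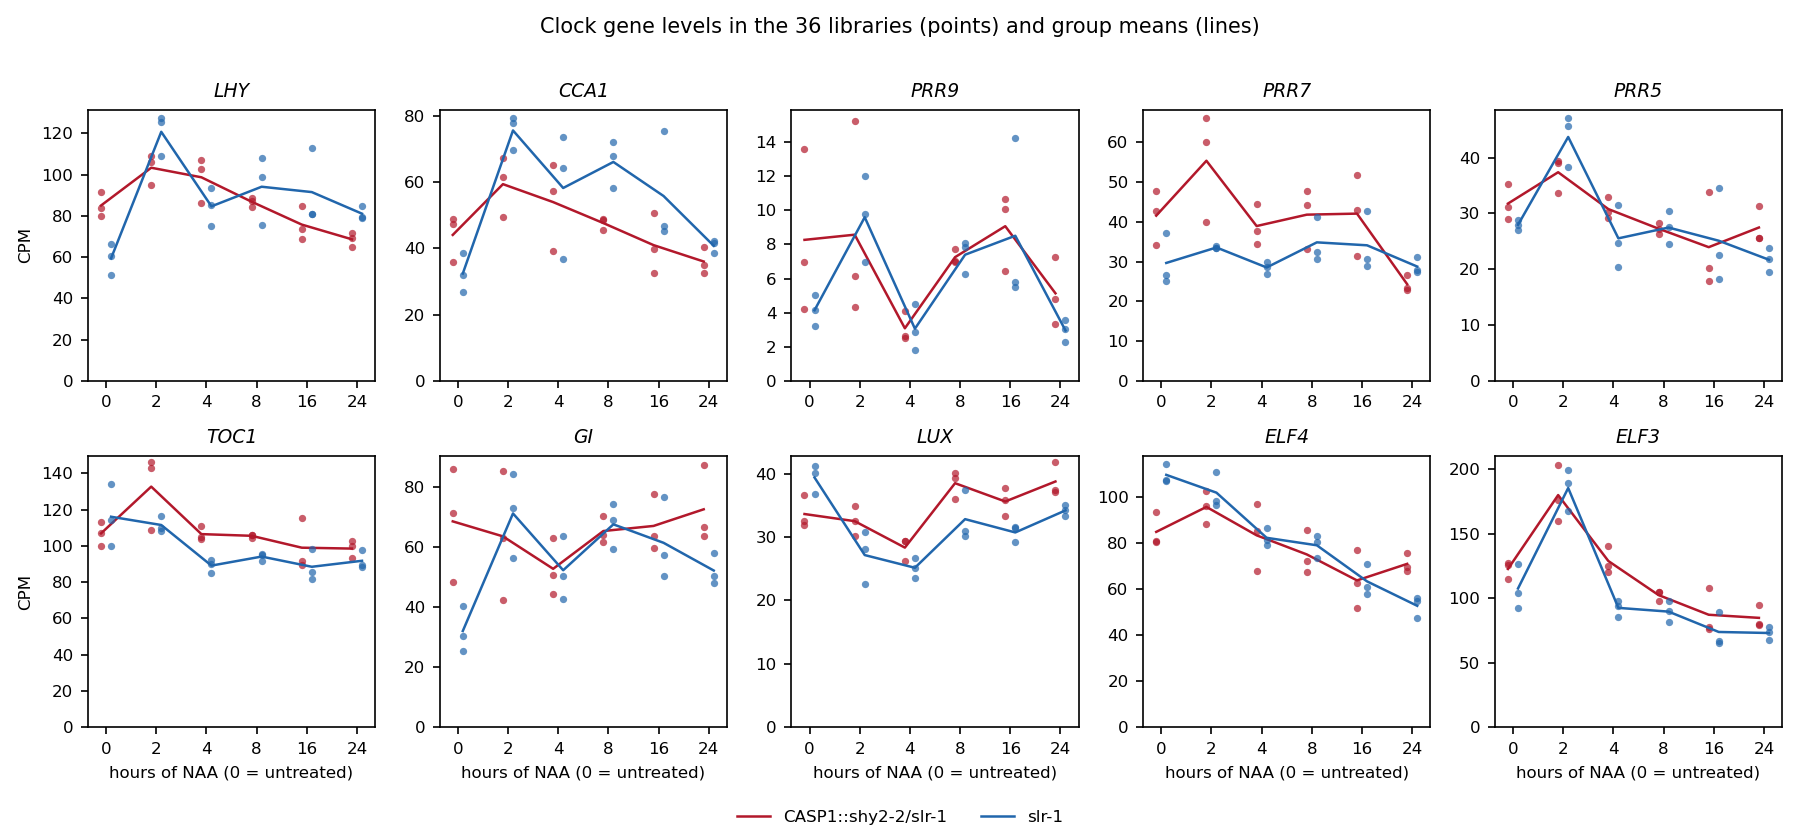
CPM of each of the 10 clock genes (vertical axis) against hours of NAA (horizontal axis, 0 is untreated), with points for libraries and lines through the means of 3, in red for CASP1::shy2-2/slr-1 and in blue for slr-1. LHY, CCA1, PRR9, PRR7, PRR5, GI and ELF3 have lower means in untreated slr-1 than in untreated CASP1::shy2-2/slr-1. Of these differences those of LHY and GI were called. ELF3 peaks at 2 h in both genotypes.

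**Figure D2:**
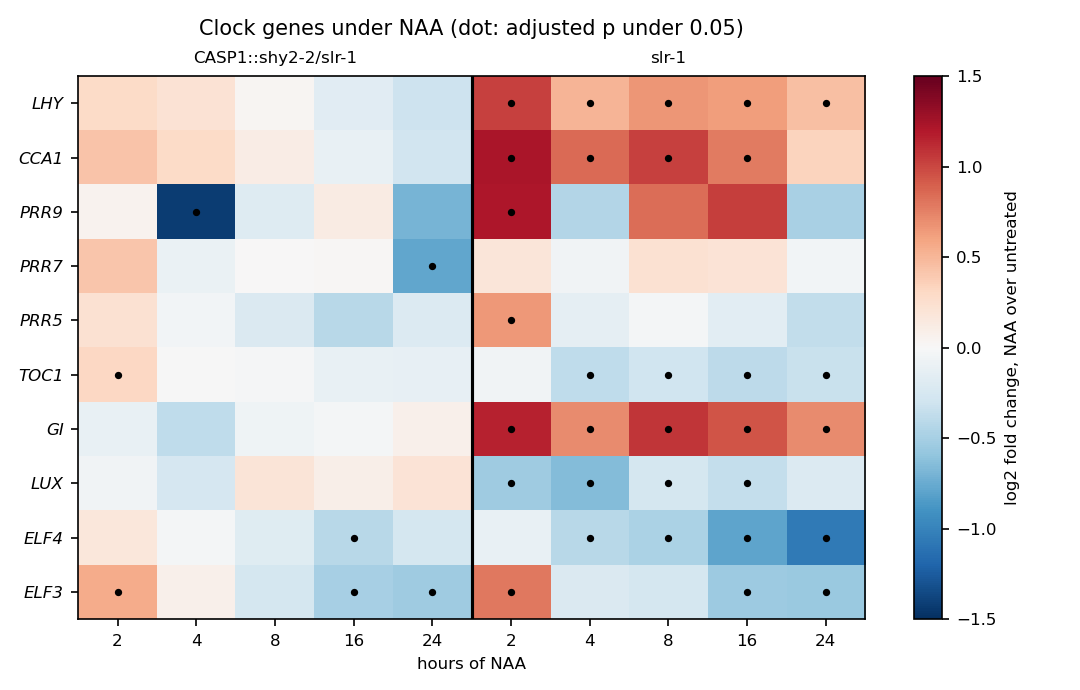
Log2 fold change of each clock gene at each NAA time over the untreated libraries of the same genotype, CASP1::shy2-2/slr-1 in the left block and slr-1 in the right, with dots on values with an adjusted p under 0.05. The slr-1 block holds 31 called values and the CASP1::shy2-2/slr-1 block 7. Of all genes 35.8 to 50.2% were called at a single time in slr-1, and 14.9 to 42.6% in CASP1::shy2-2/slr-1.

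LHY and CCA1, the dawn repressors, rose in slr-1 and were not called at any single time in CASP1::shy2-2/slr-1. Both carry a G-box (CACGTG, shown in capitals), the element that light- and clock-linked bZIP and bHLH factors bind, within the 300 bases before their annotated start. Their upstream regions, read from TAIR10.1 on the gene's strand, are shown because LHY and CCA1 act as partners and showed the same direction at every time in slr-1: LHY lies at chr1:37872-38171, minus strand, and CCA1 at chr2:19245291-19245590, plus strand.
LHY: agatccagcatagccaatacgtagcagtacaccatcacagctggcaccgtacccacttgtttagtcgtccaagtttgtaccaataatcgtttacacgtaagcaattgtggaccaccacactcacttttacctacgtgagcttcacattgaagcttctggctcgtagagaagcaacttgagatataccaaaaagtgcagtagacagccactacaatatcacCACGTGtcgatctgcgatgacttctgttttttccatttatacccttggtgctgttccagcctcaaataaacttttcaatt
CCA1: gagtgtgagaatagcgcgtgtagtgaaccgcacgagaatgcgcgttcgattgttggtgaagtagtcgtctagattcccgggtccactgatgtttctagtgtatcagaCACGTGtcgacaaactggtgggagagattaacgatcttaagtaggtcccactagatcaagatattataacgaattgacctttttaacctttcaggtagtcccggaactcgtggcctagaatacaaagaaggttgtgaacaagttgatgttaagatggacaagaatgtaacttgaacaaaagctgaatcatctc
The G-box occurs in 7.09% of 27443 upstream regions of that length, and the search of letters says nothing of binding.

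LHY had 79.8, 83.9 and 91.4 CPM in untreated CASP1::shy2-2/slr-1, 109, 106 and 94.9 at 2 h, 103, 107 and 86.2 at 4 h, 88.9, 84.5 and 87.2 at 8 h, 69.0, 73.6 and 84.7 at 16 h, and 71.5, 69.3 and 65.1 at 24 h. In this genotype the 2 h libraries all lay above and the 24 h libraries all below the untreated ones, and no neighbours in the order of the 6 levels were apart. LHY had 60.8, 66.2 and 51.2 CPM in untreated slr-1, 109, 126 and 128 at 2 h, 93.6, 85.1 and 75.2 at 4 h, 108, 99.0 and 75.4 at 8 h, 80.8, 81.1 and 113 at 16 h, and 79.4, 85.0 and 78.8 at 24 h. Here every treated library exceeded every untreated one, and the 2 h libraries exceeded all others but the highest at 16 h. The log2 fold changes in slr-1 were 1.02 ± 0.13 (SE, adjusted p 4.73e-07), 0.51 ± 0.13 (0.00224), 0.66 ± 0.13 (0.000275), 0.62 ± 0.13 (0.00042) and 0.45 ± 0.13 (0.00477) from 2 to 24 h. Leaving out any library ended none of these 5 calls. The CASP1::shy2-2/slr-1 values were 0.28 ± 0.13 (0.0913) at 2 h and -0.31 ± 0.13 (0.0505) at 24 h, and LHY passed there over the 5 times together (adjusted p 0.00134). Without the 5 libraries that stood apart, the 24 h value in CASP1::shy2-2/slr-1 was called (-0.31, adjusted p 0.0164).

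CCA1, the partner of LHY, averaged 44 ± 7.1 CPM untreated and 59.3 ± 9.1, 53.9 ± 13.4, 47.6 ± 1.88, 40.9 ± 9.05 and 36 ± 4.06 CPM from 2 to 24 h in CASP1::shy2-2/slr-1 (SD, n = 3). In slr-1 it averaged 32.4 ± 5.83 CPM untreated and 75.5 ± 5.06, 58.2 ± 19.1, 66.0 ± 7.08, 55.7 ± 17.1 and 40.7 ± 2.02 CPM from 2 to 24 h. The slr-1 changes were called at 2 h (log2 fold change 1.22 ± 0.22, adjusted p 7.21e-05), 4 h (0.85 ± 0.22, 0.00302), 8 h (1.03 ± 0.22, 0.00078) and 16 h (0.78 ± 0.22, 0.00525). At 4 h the libraries overlapped, since replicate 3 held 36.8 CPM against 26.8 to 38.5 CPM in untreated slr-1. The 16 h call of CCA1 ended without replicate 3 of slr-1 at 16 h (0.51), which held 75.5 CPM beside 45.2 and 46.6, and without the 5 libraries that stood apart (0.38, adjusted p 0.174). At 24 h the change was 0.33 ± 0.22 (0.207). The CCA1 values of CASP1::shy2-2/slr-1 were 0.43 ± 0.22 (0.132) at 2 h and -0.29 ± 0.22 (0.29) at 24 h, with 2-SE intervals of -0.00 to 0.86 and -0.72 to 0.14. CCA1 passed there over the 5 times together (adjusted p 0.0415), but not with suffix n as a term (0.158), with total count scaling (0.101), with the replicate number as a block (0.0541) or without any 1 of 7 libraries.

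The morning and day regulators PRR9, PRR7 and PRR5, repressors of LHY and CCA1, changed at single times. PRR9 had 4.22, 13.6 and 6.99 CPM in untreated CASP1::shy2-2/slr-1, 6.14, 15.2 and 4.35 at 2 h, and 2.53, 4.10 and 2.63 at 4 h, and in slr-1 4.16, 5.03 and 3.24 untreated, 12, 9.79 and 6.99 at 2 h, and 4.51, 2.87 and 1.8 at 4 h. It was the most variable of the 10, with an SD of log2 CPM within groups of 0.55 that exceeds that of 91.8% of genes. PRR9 was lower at 4 h than untreated in CASP1::shy2-2/slr-1 (-1.43 ± 0.44, adjusted p 0.0203), a call that ended without replicate 2 of the controls (-0.85) or without replicate 1 or 3 at 4 h, or in a fit of only the groups compared (-1.41, 0.0608). In slr-1 it was higher at 2 h (1.21 ± 0.43, 0.0259), and that call ended with suffix n as a term (0.91, 0.108) and without replicate 1 or 3 of the controls or replicate 1 or 2 at 2 h (1.01 to 1.2). Between 2 and 4 h PRR9 fell in both genotypes, by 1.47 ± 0.45 on the log2 scale in CASP1::shy2-2/slr-1 (0.0302) and by 1.65 ± 0.45 in slr-1 (0.00771). The CASP1::shy2-2/slr-1 step did not pass without replicate 2 at 2 h (-0.75) or replicate 1 or 3 at 4 h, with suffix n as a term (-0.67), without the 5 libraries that stood apart (-0.77) or in a fit of only the groups compared (-1.46). From 8 to 24 h it averaged 7.26 ± 0.4, 9.07 ± 2.31 and 5.14 ± 1.99 CPM in CASP1::shy2-2/slr-1, and 7.40 ± 0.973, 8.51 ± 4.98 and 2.96 ± 0.643 CPM in slr-1.

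PRR7 fell in CASP1::shy2-2/slr-1 at 24 h and was not called at any time in slr-1. It had 26.7, 23.3 and 22.9 CPM at 24 h in CASP1::shy2-2/slr-1, against 34.1, 47.7 and 42.7 CPM in its untreated libraries, so the groups did not overlap. The log2 fold change was -0.77 ± 0.19 (adjusted p 0.00196), and no library left out ended it. In slr-1 PRR7 had 31.1, 27.3 and 27.8 CPM at 24 h, against 26.7, 37.1 and 25.1 CPM untreated, a log2 fold change of -0.05 ± 0.19 with a 2-SE interval of -0.43 to 0.34. The difference between these 2 responses was -0.73 ± 0.27 (adjusted p 0.0712), so it did not pass. At 2 h PRR7 had 66.0, 40.1 and 59.9 CPM in CASP1::shy2-2/slr-1, against 33.5, 33.3 and 33.8 CPM in slr-1 (0.72 ± 0.19, adjusted p 0.00855), a difference that did not pass without the library of 66.0 CPM (0.58) or in a fit of only the groups compared (0.74, 0.0561). At 4, 8 and 16 h it averaged 38.9 ± 5.17, 41.8 ± 7.58 and 42 ± 10.3 CPM in CASP1::shy2-2/slr-1, and 28.5 ± 1.52, 34.8 ± 5.64 and 34.1 ± 7.61 CPM in slr-1.

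PRR5 was called once, at 2 h in slr-1. It averaged 31.8 ± 3.17 CPM untreated in CASP1::shy2-2/slr-1 and 37.4 ± 3.25, 30.8 ± 1.96, 27.3 ± 0.949, 23.9 ± 8.59 and 27.5 ± 3.3 CPM from 2 to 24 h. At 16 h replicate 3 of CASP1::shy2-2/slr-1 held 33.8 CPM beside 20.2 and 17.9, and without the 5 libraries that stood apart the PRR5 value at 16 h was called (-0.74, adjusted p 0.000221), against -0.41 ± 0.19 (0.108) with them. In slr-1 PRR5 had 47.1, 45.6 and 38.3 CPM at 2 h, against 28.9, 28 and 27 CPM untreated. The log2 fold change was 0.64 ± 0.19 (adjusted p 0.00813), and 0.45 with suffix n as a term (0.0976), where it no longer passed. PRR5 then fell between 2 and 4 h in slr-1 (-0.78 ± 0.19, 0.00412), to 25.5 ± 5.6 CPM, and averaged 27.5 ± 2.96, 25.1 ± 8.54 and 21.7 ± 2.21 CPM at 8, 16 and 24 h.

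TOC1, the evening member of the pseudo-response regulators, fell in slr-1 from 4 h on. Its upstream region holds 1 evening element (AAATATCT or its reverse complement, in capitals), the site through which LHY and CCA1 are known to repress it. It lies at chr5:24674663-24674962, plus strand.
TOC1: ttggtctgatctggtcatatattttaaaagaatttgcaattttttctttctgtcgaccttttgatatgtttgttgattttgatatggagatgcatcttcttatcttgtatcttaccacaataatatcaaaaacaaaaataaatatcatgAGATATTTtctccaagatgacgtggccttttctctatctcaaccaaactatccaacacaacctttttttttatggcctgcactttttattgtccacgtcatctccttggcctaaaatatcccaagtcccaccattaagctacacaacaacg
The evening element occurs in 5.64% of the 27443 upstream regions.

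TOC1 had 107, 113 and 100.2 CPM in untreated CASP1::shy2-2/slr-1, 143, 109 and 146 at 2 h, 103, 111 and 105 at 4 h, 104, 106 and 106 at 8 h, 89.6, 91.8 and 116 at 16 h, and 103, 93.1 and 99.7 at 24 h. Its rise at 2 h (0.31 ± 0.10, adjusted p 0.0219) came with overlapping libraries, and the call ended with total count scaling (0.24) and without replicate 1 or 3 of either group (0.23 to 0.32). From 4 to 24 h its values ran from -0.12 to -0.01. TOC1 had 114, 134 and 99.9 CPM in untreated slr-1, 108, 116 and 109.8 at 2 h, 92.0, 85.1 and 90.2 at 4 h, 95.6, 91.8 and 94.8 at 8 h, 81.6, 85.3 and 98.3 at 16 h, and 97.8, 89.3 and 88.0 at 24 h. All slr-1 libraries from 4 h on lay below all untreated ones. The log2 fold changes from 4 to 24 h were -0.38 ± 0.10 (adjusted p 0.00433), -0.30 ± 0.10 (0.0231), -0.39 ± 0.10 (0.0035) and -0.34 ± 0.10 (0.00794). Without replicate 2 of the slr-1 controls, the highest, the values at 4, 8 and 24 h were -0.26, -0.19 and -0.21 and no longer passed, and the 8 h call also ended without replicate 2 at 8 h (-0.28). In a fit of only the groups compared, the TOC1 calls at 8 and 16 h in slr-1 (-0.30 and -0.40) and at 2 h in CASP1::shy2-2/slr-1 (0.34) ended too. The differences between the genotypes' responses in TOC1, 0.22 to 0.38 from 2 to 24 h, did not pass (adjusted p 0.0813 to 0.33), and without the 5 libraries that stood apart they passed at all 5 times (0.32 to 0.59).

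GI, which acts in the evening with ZEITLUPE and in flowering, rose in slr-1 at all 5 times. GI had 48.3, 86.2 and 71.4 CPM in untreated CASP1::shy2-2/slr-1, 62.9, 85.5 and 42.4 at 2 h, 63.2, 50.8 and 44.3 at 4 h, 64.0, 70.3 and 61.8 at 8 h, 63.7, 77.9 and 59.7 at 16 h, and 87.3, 66.8 and 63.8 at 24 h. These groups overlapped with the untreated libraries at every time, and the 2-SE intervals of the log2 fold changes together ran from -0.83 to 0.54. GI had 25.4, 30.5 and 40.2 CPM in untreated slr-1, 84.5, 73.0 and 56.3 at 2 h, 63.8, 50.4 and 42.7 at 4 h, 69.0, 59.4 and 74.5 at 8 h, 57.3, 50.5 and 76.6 at 16 h, and 58.2, 48.0 and 50.4 at 24 h. All 15 treated slr-1 libraries lay above the 3 untreated ones. The log2 fold changes were 1.15 ± 0.23 (adjusted p 0.000257), 0.71 ± 0.23 (0.0154), 1.08 ± 0.23 (0.000855), 0.94 ± 0.23 (0.00209) and 0.70 ± 0.23 (0.0128). The 4 and 24 h calls ended without replicate 1 of the slr-1 controls (0.57 at both times), and the 4 h call also without replicate 1 at 4 h (0.55). None of the 7 motifs searched was found in the 300 bases before GI.

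Markers of green tissue were summed for the same libraries. The 12 photosynthesis markers summed to 85.8 to 242 CPM under NAA in CASP1::shy2-2/slr-1, against 167 to 234 CPM untreated. In slr-1 they summed to 121 to 304 CPM under NAA, against 225 to 391 CPM untreated. From 2 to 24 h 0, 2, 2, 0 and 0 of 12 were lower and 1 was higher, at 16 h, in CASP1::shy2-2/slr-1, while in slr-1 5, 4, 0, 2 and 0 were lower and 1 was higher at 4 and at 16 h. Of all genes 15.4%, 11.9%, 7.15%, 13.9% and 21.1% were lower from 2 to 24 h in CASP1::shy2-2/slr-1. In slr-1 22.5%, 21.8%, 17.8%, 22.5% and 26.8% of all genes were lower. Between genotypes 4 of 12 at 4 h and 6 at 8 h were lower in CASP1::shy2-2/slr-1, where 16% and 14.7% of all genes were called in either direction. The difference in response passed for none of the 12 at any time by edgeR or DESeq2, with 2, 0, 0, 1 and 0 at an unadjusted p under 0.05. Of all genes 15.6%, 11.9%, 11.6%, 9.44% and 13.8% passed that test from 2 to 24 h. RBCS1B, a small subunit of Rubisco, had no read in the 2 h libraries of CASP1::shy2-2/slr-1, and the other 11 had reads in every group. The part of these markers in the clock gene values was not tested.

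In the evening complex, LUX and ELF4 fell in slr-1 and ELF3 rose at 2 h and fell by 16 h in both genotypes. LUX is the DNA-binding MYB-like member and ELF4 a small partner that binds ELF3. The upstream region of LUX holds 2 evening elements and a G-box, in capitals. It is shown because LUX was lower in slr-1 at 2, 4, 8 and 16 h, and it lies at chr3:17182742-17183041, plus strand.
LUX: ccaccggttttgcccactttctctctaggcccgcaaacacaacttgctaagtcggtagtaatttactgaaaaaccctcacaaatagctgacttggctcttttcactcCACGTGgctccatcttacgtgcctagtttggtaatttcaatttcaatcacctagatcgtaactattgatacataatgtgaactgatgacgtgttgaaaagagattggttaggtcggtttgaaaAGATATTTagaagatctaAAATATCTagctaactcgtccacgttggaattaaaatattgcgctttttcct
An evening element was also found in this window of PRR5, and a G-box in those of PRR9 and PRR7. The windows of LHY, CCA1, TOC1 and LUX held neither of the auxin response elements TGTCTC and TGTCGG, which occur in 13% and 4.91% of upstream regions.

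LUX averaged 33.6 ± 2.55 CPM in untreated CASP1::shy2-2/slr-1 and 32.5 ± 2.36, 28.3 ± 1.78, 38.5 ± 2.2, 35.6 ± 2.24 and 38.7 ± 2.66 CPM from 2 to 24 h. No single time was called there, and the smallest adjusted p was 0.0546 at 4 h, where all 3 libraries lay below the untreated ones. LUX had 40.1, 36.8 and 41.2 CPM in untreated slr-1, 30.8, 28 and 22.6 at 2 h, 26.7, 23.6 and 25.1 at 4 h, 30.9, 30.1 and 37.4 at 8 h, 31.4, 29.1 and 31.6 at 16 h, and 34.2, 33.3 and 35.1 at 24 h. The treated slr-1 libraries lay below the untreated ones at every time but 8 h, where replicate 3 overlapped. The log2 fold changes were -0.54 ± 0.09 (adjusted p 4.85e-05), -0.65 ± 0.09 (4.57e-06), -0.26 ± 0.09 (0.0278), -0.36 ± 0.09 (0.00315) and -0.20 ± 0.09 (0.0679). The 8 h call ended without the 5 libraries that stood apart (-0.23, 0.0695) and without replicate 1 or 3 of the controls or replicate 1 or 2 at 8 h (-0.26 to -0.20), or in a fit of only the groups compared (-0.26). From 4 to 8 h LUX rose in both genotypes, by 0.44 ± 0.09 in CASP1::shy2-2/slr-1 (0.00191) and 0.38 ± 0.09 in slr-1 (0.00795), and the slr-1 step did not pass without replicate 2 at 4 h (0.33) or replicate 3 at 8 h (0.25) or in a fit of only the groups compared (0.38).

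LUX overlaps AT3G46650, a protein-coding gene on the other strand, over 1507 bases, and whether the authors counted by strand is not stated. AT3G46650 had 10.9 ± 1.2 CPM in untreated CASP1::shy2-2/slr-1 and no called change under NAA there. In slr-1 it averaged 10.8 to 13.3 CPM under NAA, against 5.28 ± 0.461 CPM untreated, with log2 fold changes of 1.03 to 1.33, all called. Its direction in slr-1 was thus opposite to that of LUX, and the part of reads from one gene in the count of the other was not tested. ELF3 overlaps AT2G25940 over 24 bases and the antisense gene AT2G08135 over 183 bases, with the same limit.

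ELF4 in slr-1 had a lower mean at each later time, and no step between neighbouring NAA times was called for it. In CASP1::shy2-2/slr-1 it had 80.3, 93.4 and 81.1 CPM untreated, 88.6, 96.0 and 103 at 2 h, 68.0, 85.4 and 96.9 at 4 h, 85.9, 72.1 and 67.3 at 8 h, 62.6, 51.9 and 76.9 at 16 h, and 75.6, 69.6 and 67.8 at 24 h. Its fall there at 16 h was called (-0.41 ± 0.12, adjusted p 0.0118) and ended without replicate 2 at 16 h (-0.27), replicate 1 at 16 h (-0.39) or replicate 2 of the controls (-0.34), or in a fit of only the groups compared (-0.41), and at 24 h the value was -0.26 ± 0.12 (0.088). ELF4 had 115, 107 and 108 CPM in untreated slr-1, 111, 98.6 and 96.6 at 2 h, 86.6, 79.3 and 81.2 at 4 h, 83.1, 80.7 and 73.5 at 8 h, 61.1, 58.0 and 71.1 at 16 h, and 56.0, 54.9 and 47.4 at 24 h. From 4 h on all treated slr-1 libraries lay below the untreated ones, and the 24 h libraries lay below all others. The log2 fold changes were -0.11 ± 0.12 (adjusted p 0.506) at 2 h, -0.41 ± 0.12 (0.00789) at 4 h, -0.47 ± 0.12 (0.00383) at 8 h, -0.79 ± 0.12 (1.9e-05) at 16 h and -1.06 ± 0.12 (1.03e-07) at 24 h, and no library left out ended a call of ELF4 in slr-1.

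ELF3, the scaffold of the evening complex, peaked at 2 h and fell below its starting level by 16 h in both genotypes. It had 127, 115 and 126 CPM in untreated CASP1::shy2-2/slr-1, 203, 159.9 and 176 at 2 h, 121, 141 and 125 at 4 h, 97.5, 105 and 105 at 8 h, 77.8, 75.8 and 108 at 16 h, and 94.6, 79.4 and 80.1 at 24 h. It had 104, 126 and 92.3 CPM in untreated slr-1, 168, 199 and 189 at 2 h, 97.4, 85.7 and 94.1 at 4 h, 97.4, 89.9 and 81.3 at 8 h, 65.5, 66.4 and 89.4 at 16 h, and 77.6, 67.8 and 73.6 at 24 h. The 2 h libraries lay above all others of their genotype. At 2 h the log2 fold change was 0.55 ± 0.13 in CASP1::shy2-2/slr-1 (adjusted p 0.00211) and 0.79 ± 0.13 in slr-1 (2.94e-05), and at 24 h it was -0.53 ± 0.13 in CASP1::shy2-2/slr-1 (0.00185) and -0.56 ± 0.13 in slr-1 (0.00101). The 16 h falls were -0.49 ± 0.13 in CASP1::shy2-2/slr-1 (0.0059), lost without replicate 1 (-0.41) or 2 (-0.39) at 16 h or in a fit of only the groups compared (-0.49, 0.0745), and -0.54 ± 0.13 in slr-1 (0.00187). The differences in response ran from -0.23 to 0.29, and with 2-SE intervals from -0.60 to 0.66 none passed (adjusted p 0.301 to 0.993), so differences of that size cannot be told from 0 here.

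Where the responses of the genotypes were compared directly, as the log2 response in CASP1::shy2-2/slr-1 minus that in slr-1, LHY, GI, LUX and ELF4 passed, LHY and GI lower and LUX and ELF4 higher. LHY, GI and LUX passed at 2 h against 15.6% of all genes (8.49% higher, 7.07% lower), and GI and LUX at 4 h against 11.9% (5.91% higher, 6.03% lower). LHY, GI and LUX passed at 8 h against 11.6% (5.64% higher, 5.98% lower). LHY and LUX passed at 16 h against 9.44% (4.52% higher, 4.92% lower), and LHY, LUX and ELF4 at 24 h against 13.8% (7.18% higher, 6.66% lower). LHY differed by -0.74 ± 0.18 (adjusted p 0.00763) at 2 h, -0.63 ± 0.18 (0.0231) at 8 h, -0.79 ± 0.18 (0.00554) at 16 h and -0.76 ± 0.18 (0.00483) at 24 h. The LHY call at 8 h ended without replicate 3 of untreated CASP1::shy2-2/slr-1 (-0.56) or replicate 1 of slr-1 at 8 h (-0.51), and the others of LHY held with each library left out. In a fit of only the groups compared, the LHY calls at 8 h (-0.63, adjusted p 0.0504) and 16 h (-0.77, 0.0606) ended, as did those of GI at 2 h (-1.24, 0.0803) and 4 h (-1.08, 0.0597) and of LUX at 2, 8 and 16 h (0.46 to 0.51, 0.0517 to 0.0688). GI differed by -1.26 ± 0.32 (0.0114), -1.09 ± 0.32 (0.03) and -1.15 ± 0.32 (0.0227) at 2, 4 and 8 h. The GI call at 2 h ended without the third CASP1::shy2-2/slr-1 library of that time (-1.03), and those at 4 and 8 h without any 1 of 8 and of 5 of the 12 libraries involved (-1.10 to -0.87 and -1.12 to -0.95). LHY at 4 h (-0.30 ± 0.18, 0.27) and GI at 16 and 24 h (-0.97 ± 0.32, 0.0549, and -0.62 ± 0.32, 0.204) did not pass. CCA1 lay between -0.92 and -0.55 and did not pass at any time (adjusted p 0.0505 to 0.226). Its value at 8 h passed by DESeq2 (-0.92, adjusted p 0.0257) and with total count scaling (-0.97, 0.0352), and that at 2 h without the 5 libraries that stood apart (-0.77, 0.0484), so the CCA1 differences lie near the threshold.

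LUX differed by 0.49 ± 0.13 (adjusted p 0.0153), 0.40 ± 0.13 (0.0461), 0.46 ± 0.13 (0.0243), 0.44 ± 0.13 (0.0324) and 0.41 ± 0.13 (0.0368) from 2 to 24 h. These calls of LUX lay close to the threshold. Left out 1 at a time, none of 12 libraries ended the 2 h call, but 10, 6, 5 and 9 of 12 ended those at 4, 8, 16 and 24 h (0.35 to 0.46). Total count scaling ended those at 4, 16 and 24 h (0.35 to 0.40), and no filter on low counts ended those at 4 and 24 h. The 4 h call was also lost with the replicate number as a block (adjusted p 0.0542). ELF4 differed by 0.80 ± 0.17 (0.00217) at 24 h, a call that no library left out ended. Over the 5 times together 4 of 10 genes differed, against 26.4% of all genes: LHY (adjusted p 0.00531), ELF4 (0.0228), GI (0.0294) and LUX (0.0389). Of these LHY held with each of 36 libraries left out, while GI, ELF4 and LUX were lost without 4, 5 and 11 of them (adjusted p up to 0.108, 0.0689 and 0.13). The LUX call was also lost with total count scaling (0.0739), with no filter on low counts (0.055), without the 5 libraries that stood apart (0.08) and with the replicate number as a block (0.0519).

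The genotypes already differed without NAA. In untreated CASP1::shy2-2/slr-1 LHY and GI were higher and ELF4 lower than in untreated slr-1, 3 of 10 genes against 24.9% of all genes. LHY had 79.8 to 91.4 CPM in untreated CASP1::shy2-2/slr-1, against 51.2 to 66.2 CPM in untreated slr-1 (log2 fold change 0.52 ± 0.13, adjusted p 0.00421). GI had 48.3 to 86.2 CPM in untreated CASP1::shy2-2/slr-1, against 25.4 to 40.2 CPM in untreated slr-1 (1.1 ± 0.23, 0.00115), and ELF4 had 80.3 to 93.4 CPM, against 107 to 115 CPM in untreated slr-1 (-0.37 ± 0.12, 0.0268). The ELF4 call ended without replicate 1 or 3 of untreated CASP1::shy2-2/slr-1 or replicate 1 of untreated slr-1 (-0.35 to -0.34). Endodermis markers summed to 201 to 332 CPM in untreated CASP1::shy2-2/slr-1 and to 72.5 to 268 CPM in untreated slr-1, and their part was not tested. Since every response in slr-1 and every difference in response uses the same 3 untreated slr-1 libraries, these results are not independent of one another.

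**Figure D3:**
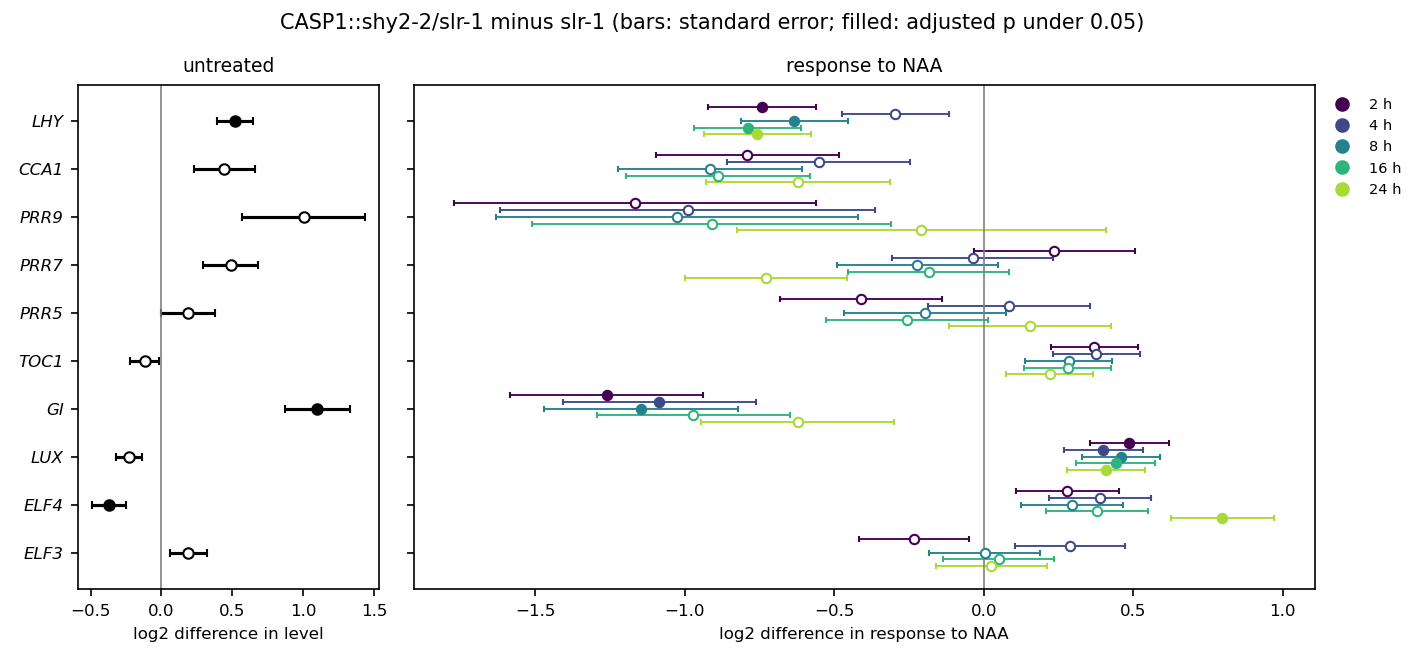
Left, log2 fold change of CASP1::shy2-2/slr-1 over slr-1 in untreated libraries for each clock gene. Right, the difference between the log2 responses to NAA (CASP1::shy2-2/slr-1 minus slr-1) at 5 times, with bars of 1 SE and filled symbols for an adjusted p under 0.05: LHY and GI lie below 0 and LUX above 0 at all 5 times.

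Of 50 comparisons of a clock gene between genotypes at the same NAA time, 3 passed: PRR7 at 2 h (against 18.3% of all genes), ELF3 at 4 h (against 16%) and ELF4 at 24 h (against 12.8%). ELF3 had 121, 141 and 125 CPM at 4 h in CASP1::shy2-2/slr-1, against 97.4, 85.7 and 94.1 CPM in slr-1 (0.48 ± 0.13, adjusted p 0.0137), and lost the call without replicate 2 of either group (0.43 both times). ELF4 had 75.6, 69.6 and 67.8 CPM at 24 h in CASP1::shy2-2/slr-1, against 56.0, 54.9 and 47.4 CPM in slr-1 (0.43 ± 0.12, 0.0179), and lost it without replicate 1 of CASP1::shy2-2/slr-1 or replicate 3 of slr-1 at 24 h (0.39 and 0.34). At 8 and 16 h no clock gene passed by edgeR or DESeq2, where 14.7% and 8.66% of all genes did, and 2 and 3 of the 10 had an unadjusted p under 0.05. For LHY and GI, the genes called higher without NAA, the differences under NAA ran from -0.27 to 0.22 and from -0.16 to 0.48, with 2-SE intervals that reach -0.53 for LHY and 0.93 for GI.

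Between neighbouring NAA times, the step from 2 to 4 h moved the most clock genes, and each that passed was lower at 4 h. In CASP1::shy2-2/slr-1 PRR9, TOC1 and ELF3 fell, 3 of 10 against 11.4% of all genes, and in slr-1 LHY, PRR9, PRR5, TOC1 and ELF3 fell, 5 of 10 against 25.7%. ELF3 fell by 0.48 ± 0.13 (adjusted p 0.016) in CASP1::shy2-2/slr-1 and by 1.00 ± 0.13 (5.44e-06) in slr-1, and LHY fell by 0.51 ± 0.13 (0.00402) in slr-1. The ELF3 step in CASP1::shy2-2/slr-1 did not pass without replicate 1 at 2 h (-0.37), replicate 1 or 3 at 4 h or in a fit of only the groups compared (-0.47). The TOC1 steps, -0.32 in each genotype (adjusted p 0.0437 in CASP1::shy2-2/slr-1 and 0.0217 in slr-1), did not pass without any 1 of 5 and of 4 of the 6 libraries involved. With suffix n as a term the slr-1 step of TOC1 did not pass. That of CASP1::shy2-2/slr-1 was lost with total count scaling, no filter on low counts, the replicate number as a block or only the groups compared. Library suffixes differ in part between 2 and 4 h in both genotypes, so this step is partly a comparison of suffixes too. From 4 to 8 h LUX alone passed in each genotype, against 15.6% of all genes in CASP1::shy2-2/slr-1 and 10% in slr-1. From 8 to 16 h none passed by edgeR or DESeq2 in either genotype, against 11.3% of all genes in CASP1::shy2-2/slr-1 and 9.81% in slr-1, with 0 and 2 of the 10 at an unadjusted p under 0.05. From 16 to 24 h PRR7 fell in CASP1::shy2-2/slr-1 (-0.79 ± 0.19, 0.00932, against 8.58% of all genes; -0.62 and not called without replicate 3 at 16 h, nor without replicate 2 (-0.76) or 3 (-0.75) at 24 h or in a fit of only the groups compared (-0.81)) and PRR9 in slr-1 (-1.52 ± 0.44, 0.0194, against 14.8%), where replicate 3 at 16 h held 14.3 CPM beside 5.49 and 5.80 and the PRR9 call ended without it (-0.94), without replicate 2 (-1.53) or 3 (-1.35) at 24 h, and without the 5 libraries that stood apart (-0.93). Without the 5 libraries that stood apart the counts over the 4 steps were 12 in CASP1::shy2-2/slr-1 and 11 in slr-1, in place of 5 and 7 of 40 each.

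In some groups 1 library was highest for most of the 10 genes, and in others no library was. In slr-1 at 16 h replicate 3 (suffix n, 1 of those that stood apart) was the highest of its group for 10 of 10 genes, and in CASP1::shy2-2/slr-1 at 16 h replicate 3 (suffix n) was highest for 7. Replicate 1 was highest for 10 of 10 in CASP1::shy2-2/slr-1 at 24 h and in slr-1 at 4 h, and for 8 in slr-1 at 24 h, and replicate 2 was highest for 8 in untreated CASP1::shy2-2/slr-1. At 2 and 8 h in CASP1::shy2-2/slr-1 no library was highest for more than 4 genes, and at 2 h in slr-1 none for more than 5. The same counts over all genes were not made. The labels give no harvest hour per library, and the part of harvest time in this spread was not tested. The SD of log2 CPM within groups ran from 0.11 for LUX (above 26.4% of genes) to 0.55 for PRR9, with a median of 0.17 over all genes compared.

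**Figure D4:**
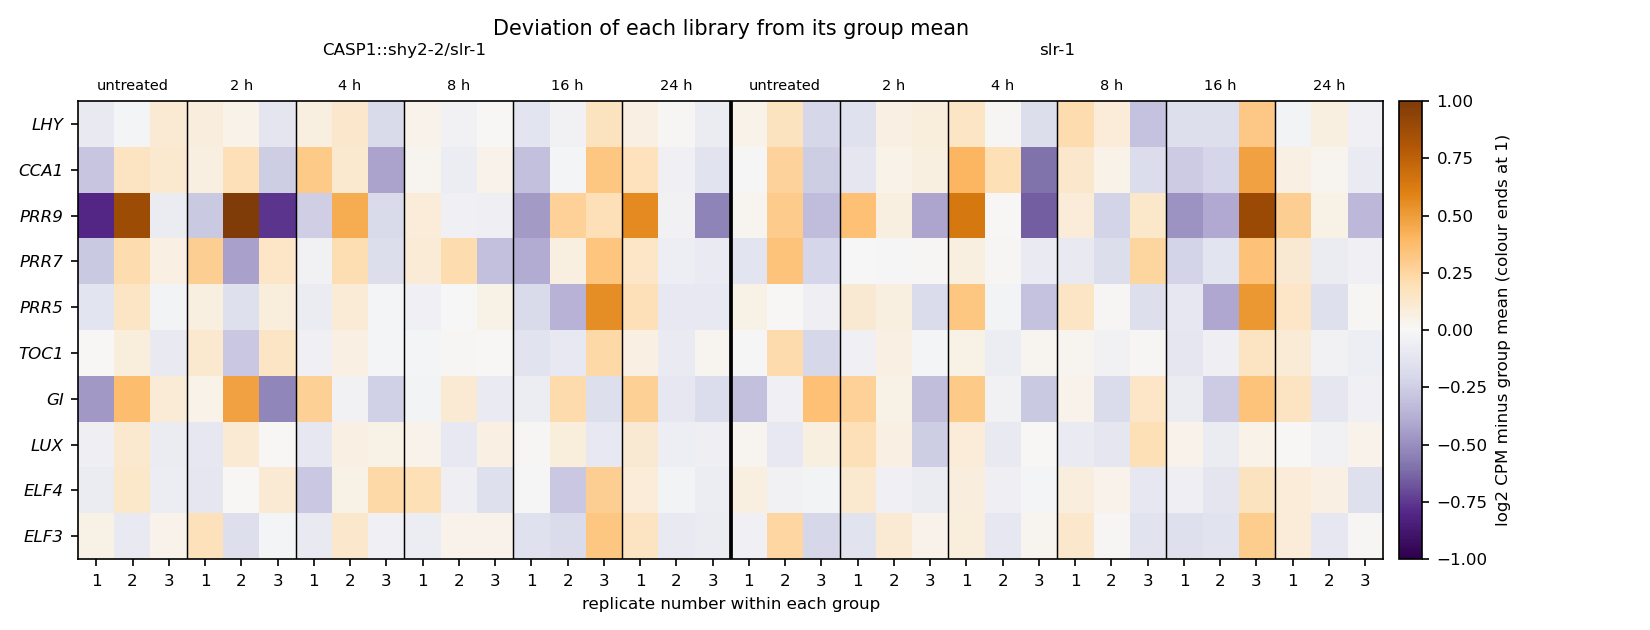
Log2 CPM of each clock gene minus the mean of its group, in each of the 36 libraries, CASP1::shy2-2/slr-1 left and slr-1 right. Columns of 1 colour, such as replicate 3 of slr-1 at 16 h, mark libraries in which all 10 genes lay on the same side of their group's mean or nearly so.

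Across the 12 group means the range of each gene ran from 1.5-fold for TOC1 and 1.57-fold for LUX to 2.54-fold for ELF3 and 3.25-fold for PRR9. On the log2 scale the range was 0.58 for TOC1 and 0.65 for LUX and 1.01 to 1.69 for the other 8, against a median of 0.89 over all genes compared. LHY, CCA1 and GI were lowest in untreated slr-1, and LUX and ELF4 highest there. LHY, CCA1, PRR9, PRR5 and ELF3 were highest in slr-1 at 2 h. As a description over the 12 group means of log2 CPM, which share the untreated groups' genotype and the NAA times, LHY correlated with CCA1 at a Pearson r of 0.92, PRR5 with ELF3 at 0.95, and CCA1 and LHY with LUX at -0.75 and -0.68. Of the clock genes, LUX alone had a negative r with LHY and CCA1. LHY and CCA1 correlated with TOC1 at 0.18 and 0.04, and with PRR5 at 0.61 and 0.53. Their r was 0.52 and 0.45 with GI, and 0.15 and 0.23 with ELF4. The genes outside the 10 whose group means were most like LHY, among 17178 compared, were RVE8 (r = 0.93), LBD13 (0.93) and BBX29 (0.92), and BBX29 was also among the 3 most like CCA1 (0.92). ELF3 was most like MSL2 and AT4G39140 (both 0.98), TOC1 like PEX11C (0.98) and ATG6 (0.97), ELF4 like AT4G36750 (0.95), PRR7 like AT3G54500 (0.90), which is LNK2, and GI like AT2G16940 (0.92).

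Other genes of the clock, a list of 27, were counted in the same contrasts. In CASP1::shy2-2/slr-1 9 rose and 2 fell at 2 h, and from 4 to 24 h 0 to 2 rose and 0 to 4 fell. In slr-1 7 rose and 6 fell at 2 h, and from 4 to 24 h 4 to 6 rose and 9 to 11 fell. The difference in response passed for 10, 7, 6, 4 and 4 of 27 from 2 to 24 h, and 11 of 27 differed between the untreated genotypes, 4 higher and 7 lower in CASP1::shy2-2/slr-1. Over the 5 times together 18 of 27 passed in CASP1::shy2-2/slr-1, 22 in slr-1 and 5 for the difference in response (ELF4-L4, RVE7, LWD1, RVE3 and ELF4-L1), a count that was 13 by DESeq2, with 14 at an unadjusted p under 0.05. Of all genes 31.1%, 22.5%, 14.9%, 29.7% and 42.6% passed from 2 to 24 h in CASP1::shy2-2/slr-1. In slr-1 42.8%, 42.1%, 35.8%, 44.9% and 50.2% did. The difference in response passed for 15.6%, 11.9%, 11.6%, 9.44% and 13.8% of all genes, and 24.9% differed between the untreated genotypes. Over the 5 times together 73%, 81.4% and 26.4% of all genes passed, in the order of the counts above.

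ELF4-L4, a homologue of ELF4, and LWD1, a WD-repeat coactivator of clock genes, fell in slr-1 at all 5 times and were not called in CASP1::shy2-2/slr-1. ELF4-L4 averaged 6.24 to 7.27 CPM in all groups of CASP1::shy2-2/slr-1. In slr-1 it averaged 5.9 to 6.9 CPM under NAA, against 9.28 to 11.7 CPM in the 3 untreated libraries. Its log2 fold changes in slr-1 ran from -0.78 ± 0.10 (adjusted p 6.24e-07) at 2 h to -0.55 ± 0.10 (9.64e-05) at 16 h, and the difference in response passed at all 5 times (0.43 to 0.68). LWD1 fell by 0.48 ± 0.12 (0.00252) at 2 h and 0.65 ± 0.12 (0.000105) at 24 h in slr-1, and its difference in response passed at 2, 4, 8 and 16 h (0.58 to 0.71). RVE7, a MYB-like relative of LHY, showed the largest difference of these 3, 1.06 to 1.41 at all 5 times. It was higher than untreated at 2 h (0.60 ± 0.21, 0.0294) and 16 h (0.87 ± 0.21, 0.00253) in CASP1::shy2-2/slr-1, and lower at 4, 8, 16 and 24 h in slr-1, down to -1.53 ± 0.21 (1.76e-06).

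RVE8, an activator of evening genes, rose in both genotypes at 2 h, by 0.54 ± 0.19 (adjusted p 0.0278) in CASP1::shy2-2/slr-1 and 1.00 ± 0.19 (0.000131) in slr-1. LNK1, a coactivator that works with RVE8, was chosen after its values were seen: it rose in slr-1 at all 5 times (log2 fold changes 0.62 to 1.17), at none in CASP1::shy2-2/slr-1, and was 0.83 ± 0.22 (0.00635) higher in untreated CASP1::shy2-2/slr-1 than in untreated slr-1. JMJ30, an evening-expressed histone demethylase, fell in both genotypes at 2 h, by 0.60 ± 0.11 (0.00021) in CASP1::shy2-2/slr-1 and 1.08 ± 0.11 (3.63e-08) in slr-1. PRR3, which stabilises TOC1, and RVE1, which links the clock to auxin synthesis, rose at 2 h in CASP1::shy2-2/slr-1 (0.58 ± 0.15 and 0.86 ± 0.21) and were at -0.01 and 0.01 in slr-1, and both fell in both genotypes at 16 and 24 h. The difference in response at 2 h passed for PRR3 (0.59 ± 0.21, 0.0495) and not for RVE1 (0.85 ± 0.30, 0.0506). BOA, the closest relative of LUX, rose at 2 h in CASP1::shy2-2/slr-1 (0.91 ± 0.26, 0.00812) and fell from 4 h on in slr-1, to -1.35 ± 0.26 (0.000236) at 16 h, and it overlaps AT5G59580 on the other strand over 1896 bases.

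**Figure D5:**
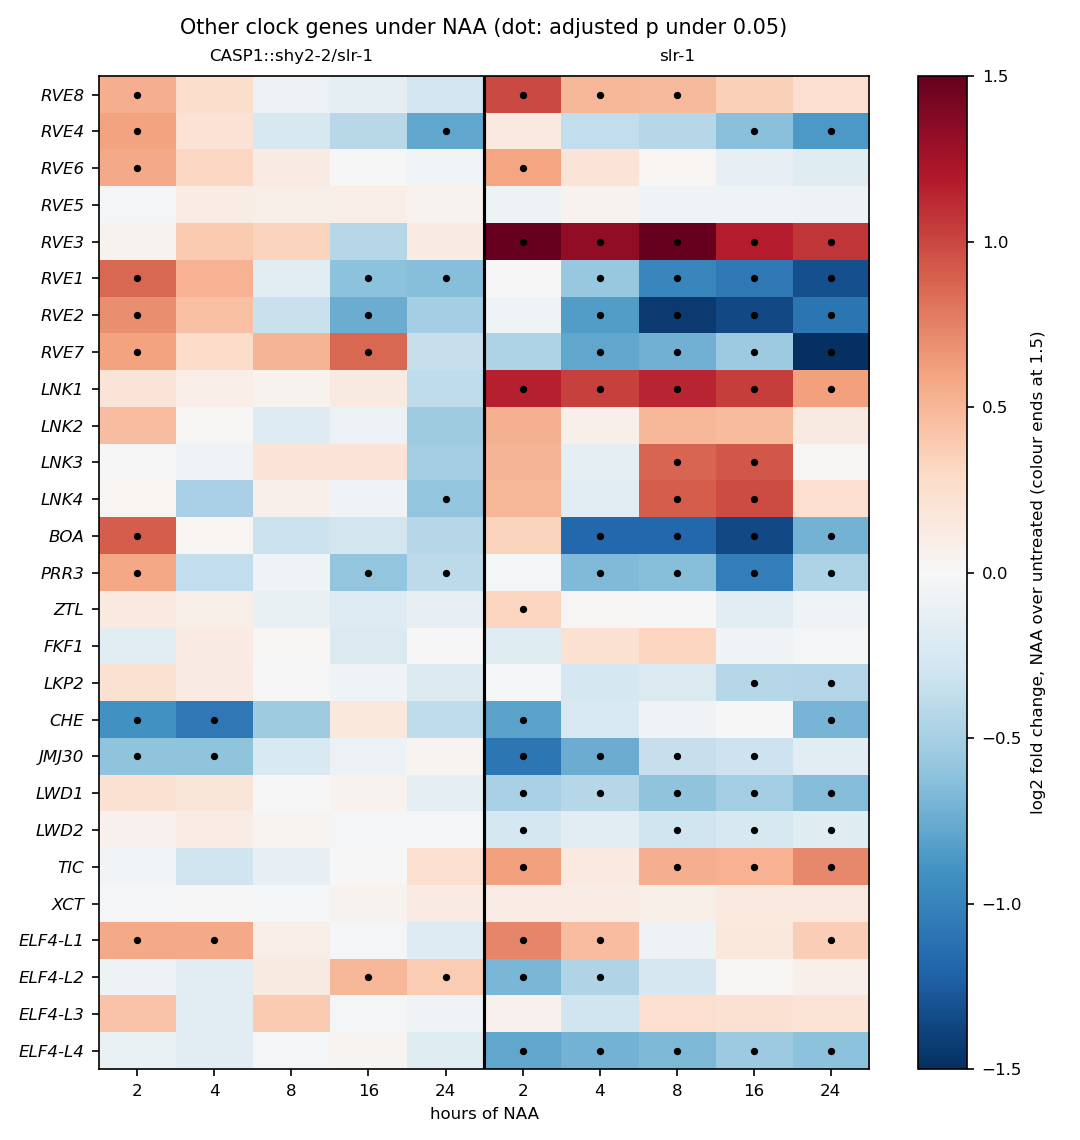
Log2 fold change of 27 other clock genes at each NAA time over the untreated libraries of the same genotype, CASP1::shy2-2/slr-1 left and slr-1 right, with dots on values with an adjusted p under 0.05. ELF4-L4 and LWD1 carry dots at all 5 times in slr-1 and none in CASP1::shy2-2/slr-1.

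Of 17 genes known as clock outputs, 16 were tested. Over the 5 times together 11 of 16 passed in CASP1::shy2-2/slr-1, 15 of 16 in slr-1 and 5 of 16 for the difference in response, against 73%, 81.4% and 26.4% of all genes. COR27 and COR28, cold-regulated repressors that the clock drives, fell in slr-1 at all 5 times and in CASP1::shy2-2/slr-1 at 16 and 24 h. COR28 was at 0.26 ± 0.26 (adjusted p 0.475) at 2 h in CASP1::shy2-2/slr-1 and at -1.09 ± 0.27 (0.00192) in slr-1, and this difference passed (1.36 ± 0.38, 0.0173). COL9, a CONSTANS-like repressor of flowering, also fell in slr-1 at all 5 times, with differences in response of 1.1, 1.03 and 1.21 at 2, 4 and 8 h that all passed. GRP7, an RNA-binding protein with an evening peak, fell at 2 h in both genotypes, by 0.41 ± 0.09 (0.000742) in CASP1::shy2-2/slr-1 and 0.55 ± 0.09 (1.71e-05) in slr-1, and was higher at 16 h in both. CAT2, a catalase with a morning peak, fell at 4 and 8 h in both, by up to 1.02 ± 0.14 (9.11e-06) in CASP1::shy2-2/slr-1 and 1.27 ± 0.14 (7.92e-08) in slr-1.

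Of 8 photoreceptor genes, 0, 0, 0, 1 and 4 passed in CASP1::shy2-2/slr-1 from 2 to 24 h by edgeR, and 3, 3, 4, 5 and 5 in slr-1. Of all genes 31.1%, 22.5%, 14.9%, 29.7% and 42.6% passed in CASP1::shy2-2/slr-1 and 42.8%, 42.1%, 35.8%, 44.9% and 50.2% in slr-1. By DESeq2 the photoreceptor counts in CASP1::shy2-2/slr-1 were 1, 0, 1, 1 and 5, with 2, 0, 1, 1 and 5 at an unadjusted p under 0.05. PHYB, the main red-light receptor, had 143 CPM at 2 h in CASP1::shy2-2/slr-1, against 119 CPM untreated (0.27 ± 0.12, adjusted p 0.0809). In slr-1 it rose to 209 CPM at 2 h, against 102 CPM untreated (1.03 ± 0.12, 1.34e-07), and stood at 0.38 to 0.43 from 4 to 24 h, all called. The difference in response of PHYB at 2 h passed (-0.76 ± 0.17, 0.00403). The blue-light receptors CRY1 and CRY2 fell in slr-1 from 4 to 24 h (-0.70 to -0.97) and in CASP1::shy2-2/slr-1 at 24 h, CRY1 by 0.59 ± 0.24 (0.0463) and CRY2 by 0.62 ± 0.20 (0.0152). The difference in response of CRY2 passed at 4 h (0.89 ± 0.29, 0.0428), and that of CRY1 at no time (0.11 to 0.77). From 2 to 24 h the difference passed for 2, 1, 1, 0 and 0 of 8 by edgeR. Of all genes 15.6%, 11.9%, 11.6%, 9.44% and 13.8% passed. Over the 5 times together it passed for PHYB (adjusted p 0.0125) and PHYD (0.0456) and not for CRY2 (0.113), against 26.4% of all genes.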

How the data were processed

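Stranded mRNA libraries of 36 root samples were sequenced as single reads. The deposited files hold 1 raw count of reads per gene and library, which the authors made with cutadapt 1.3, STAR 2.4.0a and HTSeq 0.6.1 on TAIR10, per the submitters' processing notes. The use of strand is not given in the sources used here, so overlapping genes are uncertain. Summary categories (5 per file, 5.28 to 11.17% of reads) were left out. Counts were tested in R 4.3.3 with edgeR 4.0.16 (TMM factors 0.9394 to 1.066, filterByExpr, robust quasi-likelihood F-test, 1 mean per group, 24 residual degrees of freedom), with Benjamini-Hochberg adjustment over 20939 genes within each comparison. Log2 fold changes carry 1 SE, and intervals are 2 SE. The code was tested on simulated data. Every pair of replicates differed by more than sampling alone gives (chi-square over its degrees of freedom, 3.59 to 101).

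The clock genes and all lists were chosen with earlier results of these data known. Outside the 10 genes, most genes named from a list had 1 of the 4 smallest p over the 5 times. That p was for either genotype or for the difference in response, and not all such genes were named. Per clock gene up to 3 genes were named by the Pearson r of group means. Alternatives were other scalings and filters, DESeq2 1.42.0, the replicate number as a block, suffix n as a term, stricter thresholds, libraries left out singly, and the 5 that stood apart left out together, which was chosen after seeing the data. Same-numbered libraries deviated together (r over 0.1 in all 3 pairs) in 1 of 16 comparisons, the genotypes at 16 h, where the pairing comes from the numbers alone. Upstream regions (300 bases) were read from the RefSeq TAIR10.1 genome.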

Additional observations from a re-analysis of the deposited data

Results flagged for a closer look

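The difference between the genotypes' log2 responses to NAA, CASP1::shy2-2/slr-1 minus slr-1, passed the test of the difference itself for 4 clock genes. LHY differed by -0.74 at 2 h, -0.63 at 8 h, -0.79 at 16 h and -0.76 at 24 h. GI differed by -1.26 at 2 h, -1.09 at 4 h and -1.15 at 8 h. LUX differed by 0.49 at 2 h, 0.40 at 4 h, 0.46 at 8 h, 0.44 at 16 h and 0.41 at 24 h. ELF4 differed by 0.80 at 24 h. All of these values share the 3 untreated libraries of each genotype. LHY and GI were also called higher in untreated CASP1::shy2-2/slr-1 than in untreated slr-1. Neither was called between the genotypes at any NAA time.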

How the results depend on the processing

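No value of a clock gene changed direction where it was called, under any setting tried. Of the gene values, 3436 stayed on their side of the threshold, 136 lost the call and 148 gained it; with single libraries left out the numbers were 2584, 136 and 40. Counts of clock genes called are given as the alternative's count in place of the count above. With total count scaling they were 1 in place of 2 at 2 h and 2 in place of 1 at 4 h in CASP1::shy2-2/slr-1, and 1 in place of 2 for the difference in response at 4 h, a count that was also 1 with no filter on low counts and with the replicate number as a block. The block ended the LUX call there (0.40, adjusted p 0.0542) and that of LUX over the 5 times (0.0519), those of CCA1 over the 5 times (0.0541) and of TOC1 from 2 to 4 h (-0.32, 0.055) in CASP1::shy2-2/slr-1, and added PRR9 at 16 h in slr-1 (1.11, 0.0388); it changed no other call. A mean CPM of at least 5, or DESeq2, gave 4 in place of 2 for the difference at 16 h. Suffix n as a term gave 6 in place of 3 for the difference at 2 h and 5 in place of 3 between untreated genotypes. With libraries without a suffix alone the counts in CASP1::shy2-2/slr-1 were 2, 4 and 5 at 4, 16 and 24 h in place of 1, 2 and 2, in slr-1 8 at 24 h in place of 5, for the difference 0 and 5 at 4 and 24 h in place of 2 and 3, and between untreated genotypes 7 in place of 3; comparisons with 2 h gave no value. Without the 5 libraries that stood apart they were 2, 1, 4 and 4 from 4 to 24 h in CASP1::shy2-2/slr-1 in place of 1, 0, 2 and 2, for the difference 6, 4 and 5 at 2, 4 and 24 h in place of 3, 2 and 3, between genotypes under NAA 6 of 50 in place of 3, and over the steps 12 and 11 in place of 5 and 7. Fitting only the groups compared gave 1, 0, 1, 0 and 5 from 2 to 24 h in CASP1::shy2-2/slr-1 in place of 2, 1, 0, 2 and 2, for the difference 1, 1, 0 and 5 at 2, 4, 16 and 24 h in place of 3, 2, 2 and 3, under NAA between genotypes 10 in place of 3, and over the steps in CASP1::shy2-2/slr-1 3 in place of 5. An adjusted p under 0.01 gave 1, 0 and 1 at 2, 4 and 16 h in CASP1::shy2-2/slr-1, for the difference 1, 0, 0 and 1 from 2 to 16 h and 1 over the 5 times in place of 4, under NAA between genotypes 1, and over the steps 2 in CASP1::shy2-2/slr-1. An absolute log2 fold change of at least 1 gave 0 at 2, 16 and 24 h in CASP1::shy2-2/slr-1, 4, 0, 2, 0 and 1 from 2 to 24 h in slr-1, 1, 1, 1, 0 and 0 for the difference, 1 between untreated genotypes and 0 under NAA, and 1 and 3 over the steps. With each library left out in turn the counts from 2 to 24 h were 1 to 3, 0 to 1, 0 to 0, 0 to 3 and 2 to 3 in CASP1::shy2-2/slr-1, 6 to 7, 5 to 6, 4 to 6, 6 to 8 and 4 to 5 in slr-1, and 2 to 6, 0 to 3, 0 to 4, 1 to 3 and 2 to 4 for the difference. They were 2 to 4 between untreated genotypes, 2 to 6 under NAA between genotypes, 2 to 8 and 5 to 10 over the steps in CASP1::shy2-2/slr-1 and slr-1, and 6 to 9, 9 to 9 and 1 to 6 over the 5 times in CASP1::shy2-2/slr-1, in slr-1 and for the difference. The causes of these changes were not tested. With 3 libraries a group and 1 untreated group per genotype, PRR9 had the fewest reads and the widest spread within groups of the clock genes.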
